A study of Mus musculus with 4 samples.

Results

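The opioid system is described here through 7 genes: the receptor genes Oprk1 (kappa), Oprm1 (mu), Oprd1 (delta) and Oprl1 (nociceptin), and the peptide precursor genes Penk (proenkephalin), Pdyn (prodynorphin) and Pnoc (prepronociceptin). They were chosen by symbol, and all 7 were found among the 32531 gene names in the count files. The samples were cerebral cortex of adult mice of the Cbln1-TRAP NIDA030 genotype, which carry the ribosomal protein Rpl10a fused to EGFP in a transgene named for Cbln1. Both groups came from this genotype: 2 libraries held ribosome-bound RNA immunopurified through the EGFP tag (IP 2 and IP 4), and 2 held total RNA of the cortex (input 2 and input 4). No untagged mice and no IP from another line were among the libraries, and strain, sex and the number of animals per library are not given in the labels. Which cells carry the tag is not in the labels beyond the word neurons. Nothing states that each library is a different animal, and p-values here therefore reflect library-to-library spread that may be partly technical.

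Opioid peptides are cut from large precursor proteins inside dense-core vesicles and act on receptors that couple to inhibitory G proteins. Activated receptors open inwardly rectifying potassium channels, close presynaptic calcium channels and lower cyclic AMP, which dampens firing and transmitter release. Enkephalins act mainly on delta and mu receptors, dynorphins on the kappa receptor, and nociceptin on its own receptor, which does not bind the classical opioids. In cortex, enkephalin, dynorphin and nociceptin are best known from GABAergic interneurons, mu receptors are also prominent in interneurons, and kappa receptors are found in deep layers and the neighbouring claustrum. In striatum, Penk marks projection neurons with the dopamine receptor Drd2 and Pdyn those with Drd1.

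The precursors are related through a short tyrosine-glycine-glycine-phenylalanine core that is read by the receptors, and the coding sequences below show how closely the genes share it. In the reference transcripts of GENCODE vM21 (GRCm38), the 268-codon reading frame of Penk held 7 such cores, 6 ending in methionine and 1 in leucine. The 248-codon frame of Pdyn held 3, all ending in leucine. The 187-codon frame of Pnoc held 1, with phenylalanine in place of the first tyrosine and threonine as its last residue. Capitals mark the 15 bases of the core, counted with the methionine, leucine or threonine codon that ends it. The lower case bases are the codons on either side. Every one of these cores follows a pair of lysine or arginine codons, where prohormone convertases cut. The first dynorphin gene unit gives alpha-neoendorphin, the second dynorphin A and the third dynorphin B.
Penk, Met-enkephalin unit 1, chr4:4134328-4134354, minus strand: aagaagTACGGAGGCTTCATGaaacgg
Penk, Leu-enkephalin unit 6, chr4:4133935-4133961, minus strand: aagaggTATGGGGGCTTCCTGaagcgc
Pdyn, unit 1, chr2:129688232-129688258, minus strand: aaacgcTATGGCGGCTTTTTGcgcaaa
Pdyn, unit 2, chr2:129688124-129688150, minus strand: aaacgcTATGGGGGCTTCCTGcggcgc
Pdyn, unit 3, chr2:129688067-129688093, minus strand: aagcgcTATGGTGGTTTCCTGcggcgt
Pnoc, unit 1, chr14:65404872-65404898, minus strand: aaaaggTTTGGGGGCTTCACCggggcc
The Leu-enkephalin core of Penk unit 6 and the core of Pdyn unit 2 are the same 15 bases, although the genes lie on different chromosomes.

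Gene counts summed to between 39750468 and 47567384 per library, and 3 counts corresponded to 0.0660 to 0.0790 CPM (CPM, counts relative to a library size scaled by TMM). For Cbln1, the gene the line is named for, IP 2 and IP 4 held 99.3 and 68.7 CPM against 11.9 and 8.55 CPM in input 2 and input 4, an enrichment of 8.19-fold that goes with the library labels. Lane and group cannot be told apart, since per the descriptions lane 1 held IP and lane 2 held input. In homogenised tissue, a lower value may reflect fewer cells of a type or less RNA per cell. Since IP held ribosome-bound RNA and input total RNA, it may also reflect which cells carry the tag or how much RNA was ribosome-bound. These cannot be told apart here.

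Among the 7 genes, Penk and Oprk1 rose in IP, Oprm1 fell, and Oprd1, Oprl1, Pdyn and Pnoc did not pass the test (edgeR's quasi-likelihood test, with p adjusted by Benjamini-Hochberg over 16600 genes and a threshold of 0.05). All 7 passed the filter on low counts, and their mean abundance ran from 4.40 CPM for Pnoc to 91.6 CPM for Penk. Of all genes tested, 45.8% were called in either direction, 23.4% higher and 22.4% lower in IP, so 3 of 7 is near the background. With library sizes alone in place of TMM the share was 48.6%, with 4 of the 7 called. Of the 9076 genes with a mean of 4 to 100 CPM, a range that holds all 7, 29.9% were called higher and 20.7% lower. The IP and input libraries did not overlap for 4 of the 7 genes, against 73.0% of all genes tested. The receptor genes spanned log2 fold changes from -0.68 to 0.91.

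**Figure D1:**
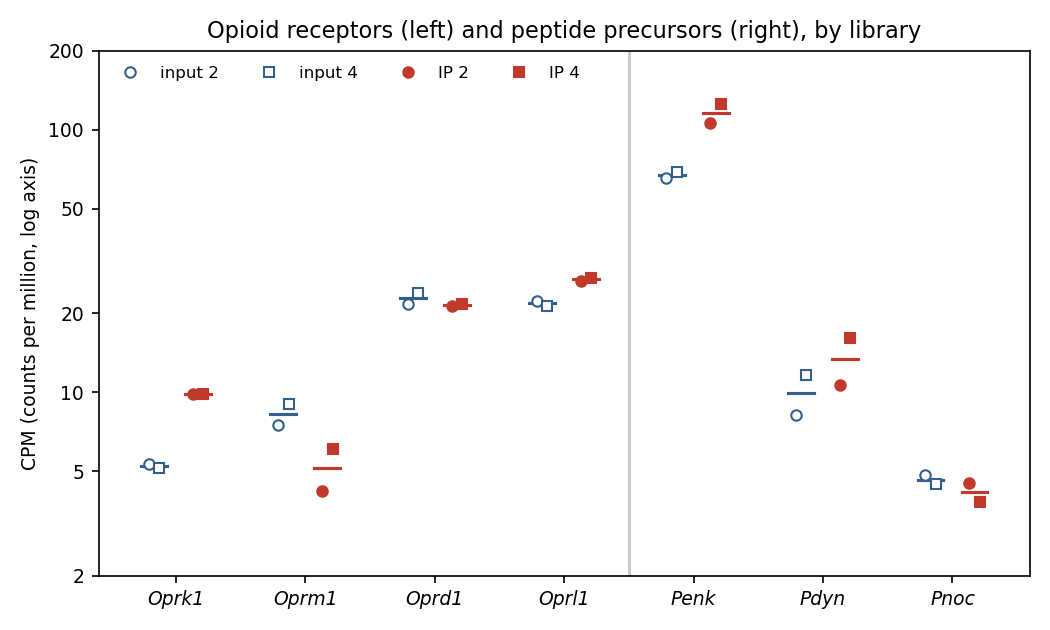
Abundance of the 4 opioid receptor genes and the 3 precursor genes in each library, in CPM on a log axis. Points are libraries (filled red for IP, open blue for input, circles for number 2, squares for number 4) and bars are group means of 2. Oprk1 and Penk lie higher in both IP libraries and Oprm1 lower, and Pdyn overlaps between the groups.

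Oprk1 encodes the kappa receptor, the main target of dynorphins. Its abundance in IP 2 and IP 4 was 9.82 and 9.88 CPM, against 5.32 CPM in input 2 and 5.13 CPM in input 4, from 373, 427, 242 and 222 counts. Both IP libraries lay well above both input libraries, and libraries of a group lay close together. The difference was 1.88-fold, with a 95% confidence interval of 1.42-fold to 2.50-fold (log2 fold change 0.91, SE 0.20, edgeR adjusted p = 0.000855). Oprk1 (ENSMUSG00000025905.13) lies on chromosome 1 (plus strand) from 5588466 to 5606131 in GRCm38, and no other annotated gene overlaps it. Without any 1 of the 4 libraries its log2 fold change stayed between 0.90 and 0.95.

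Oprm1 encodes the mu receptor, the target of morphine and of endogenous enkephalins and endorphin. It moved the other way. Its abundance in IP 2 and IP 4 was 4.21 and 6.08 CPM, and 7.48 CPM in input 2 and 9.01 CPM in input 4, from 160, 263, 340 and 390 counts. Both IP libraries lay below both input libraries, although the libraries of each group were spread more widely than for Oprk1. The log2 fold change was -0.68 (SE 0.23, edgeR adjusted p = 0.0196), which is 1.60-fold lower in IP. This call rested on single libraries: it was lost without IP 2, at -0.42 (edgeR adjusted p = 0.166), and without input 4, at -0.53 (edgeR adjusted p = 0.137). Oprm1 (ENSMUSG00000000766.18) lies on chromosome 10 (plus strand) from 6758506 to 7038198. It shares 96 exonic bases with Ipcef1 on the opposite strand, and the strand setting of the counting is not given in the sources used here, so its counts are uncertain to that extent.

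Oprd1 encodes the delta receptor, which binds enkephalins most tightly. Its abundance in IP 2 and IP 4 was 21.3 and 21.7 CPM and 21.6 and 23.9 CPM in input 2 and input 4. The groups overlapped, and the log2 fold change was -0.09 (SE 0.14, edgeR adjusted p = 0.635). Its 95% confidence interval, from -0.37 to 0.20, leaves out a change of the size seen for Oprk1 or for Oprm1 in this comparison. Oprd1 (ENSMUSG00000050511.1) lies on chromosome 4 (minus strand) from 132110726 to 132144486.

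Oprl1 encodes the nociceptin receptor, the most abundant of the receptor transcripts in IP. It stood in IP 2 and IP 4 at 26.6 and 27.2 CPM and at 22.3 and 21.3 CPM in input 2 and input 4. The groups did not overlap, with IP higher, but the difference of 1.23-fold did not pass the threshold (log2 fold change 0.30, SE 0.13, edgeR adjusted p = 0.0637). With library sizes alone in place of TMM it was 0.04 (edgeR adjusted p = 0.805). That scaling lowered the median log2 fold change of all genes by 0.26, which is about the size of the Oprl1 difference, and it brought Oprd1 to -0.34 with an edgeR adjusted p of 0.0422. Oprl1 (ENSMUSG00000027584.16) lies on chromosome 2 (plus strand) from 181715016 to 181720985.

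Penk, the enkephalin precursor gene, was by far the most abundant of the 7. Its abundance in IP 2 and IP 4 was 106 and 125 CPM, and 65.7 CPM in input 2 and 69.0 CPM in input 4, from 4044, 5414, 2988 and 2986 counts. IP was higher with no overlap between the groups. The difference was 1.72-fold, with a 95% confidence interval of 1.48-fold to 2.0-fold (log2 fold change 0.78, SE 0.11, edgeR adjusted p = 7.2e-06). Penk (ENSMUSG00000045573.9) lies on chromosome 4 (minus strand) from 4133531 to 4138819. The annotation used here has a noncoding gene, A830012C17Rik, on the opposite strand that shares 233 exonic bases with it. That name is not in the count files, so reads from it could have been counted as Penk if strand was ignored.

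Pdyn, the dynorphin precursor gene, stood in IP 2 and IP 4 at 10.7 and 16.1 CPM, and at 8.21 CPM in input 2 and 11.6 CPM in input 4. The groups overlapped, since IP 2 lay below input 4. Libraries numbered 4 were higher than those numbered 2 in both groups, 1.51-fold in IP and 1.41-fold in input. Between libraries of the same number, the log2 ratio of IP to input was 0.38 for number 2 and 0.47 for number 4. The log2 fold change of 0.44 did not pass (SE 0.21, edgeR adjusted p = 0.0950). Its value turned on which library was used: it was 0.72 without IP 2 (edgeR adjusted p = 0.00170) and 0.71 without input 4 (edgeR adjusted p = 0.00815), but 0.12 without IP 4 (edgeR adjusted p = 0.704) and 0.21 without input 2 (edgeR adjusted p = 0.489). Pdyn (ENSMUSG00000027400.11) lies on chromosome 2 (minus strand) from 129686565 to 129699844.

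Pnoc, the nociceptin precursor gene, had the lowest mean CPM of the opioid genes, without correction for length. It stood at 4.50 and 3.82 CPM in IP 2 and IP 4 and 4.82 and 4.46 CPM in input 2 and input 4. The groups overlapped. The log2 fold change was -0.16 (SE 0.25, edgeR adjusted p = 0.631), with a 95% confidence interval from -0.68 to 0.36. Its counts were 165 to 219 per library. Pnoc (ENSMUSG00000045731.6) lies on chromosome 14 (minus strand) from 65400673 to 65425472.

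**Figure D2:**
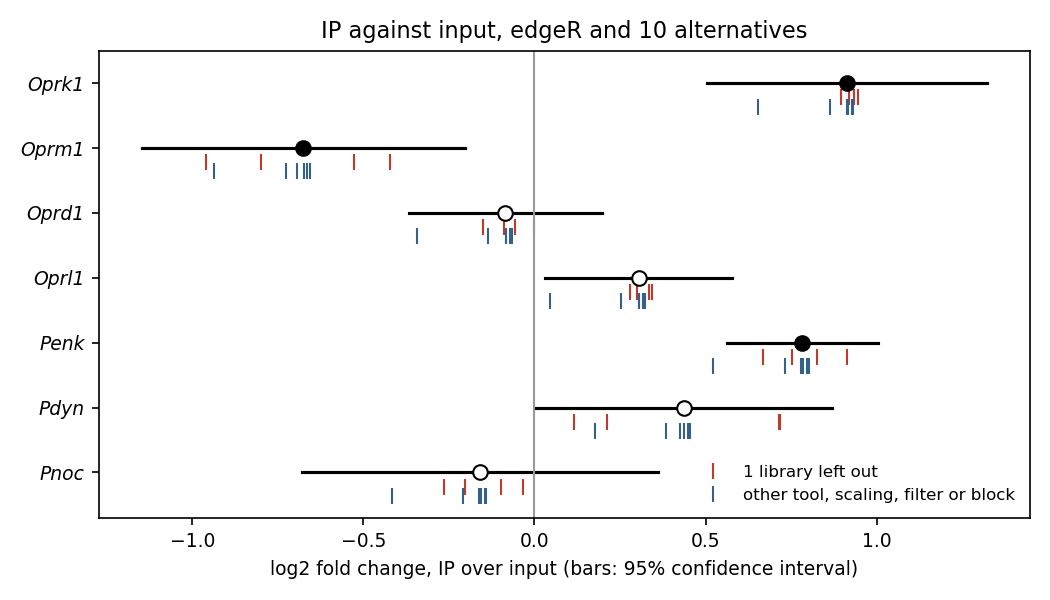
Log2 fold change of IP over input for each gene (circles, filled where the adjusted p was under 0.05) with its 95% confidence interval. Red ticks give the value with 1 library left out and blue ticks the value with another tool, scaling, filter or a replicate block. Ticks for Oprk1 and Penk all lie above 0 and those for Oprm1 all below, and the red ticks of Pdyn run from 0.12 to 0.72.

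Levels of different genes can be set side by side only per length. Divided by the length of the longest protein-coding transcript, Penk stood at 79.9 ± 9.19 CPM per kilobase in IP and 46.5 ± 1.59 in input (SD, n = 2 each). In IP, Oprl1 followed at 8.97 ± 0.130 CPM per kilobase, then Pdyn at 5.6 ± 1.61 and Oprd1 at 5.34 ± 0.0640, a pair closer than the spread of Pdyn. Oprm1 at 2.13 ± 0.548, Oprk1 at 2.11 ± 0.00944 and Pnoc at 1.93 ± 0.224 CPM per kilobase could not be ordered beyond their spread. In input, the level per kilobase was 7.27 ± 0.243 for Oprl1, 5.67 ± 0.406 for Oprd1, 4.15 ± 1.01 for Pdyn, 3.41 ± 0.447 for Oprm1, 2.15 ± 0.118 for Pnoc and 1.12 ± 0.0295 for Oprk1. Here Oprk1 was lowest in both libraries, and the levels of Pdyn and Oprm1 lay within their spread. The lengths matter for these receptors. Per kilobase of the union of all annotated exons, Oprk1 stood at 1.08 ± 0.00482 in IP and 0.571 ± 0.0151 in input, and Oprm1 at 0.641 ± 0.165 in IP and 1.03 ± 0.135 in input. That placed Pnoc above both in either group.

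Within the family, each library's own counts can be divided among the genes, which does not depend on how libraries were scaled. Oprk1 made up 15.8% (95% exact binomial interval 14.4 to 17.4) of receptor counts in IP 2 and 15.2% (13.9 to 16.6) in IP 4. In input 2 and input 4 its share was 9.38% (8.29 to 10.6) and 8.64% (7.58 to 9.80). The share of Oprm1 was 6.80% and 9.39% in IP 2 and IP 4 and 13.2% and 15.2% in input 2 and input 4. Oprk1 therefore had more counts than Oprm1 in both IP libraries and fewer in both input libraries. The ratio of Oprk1 to Oprm1 counts was 2.33 in IP 2 and 1.62 in IP 4, against 0.712 in input 2 and 0.569 in input 4. The ratio was 3.06-fold higher in IP (exact permutation test over the 4 libraries, two-sided p = 0.333, the smallest that 2 against 2 allows). These intervals cover counting error only.

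Among precursor counts, Penk took 87.5% (95% exact binomial interval 86.5 to 88.5) in IP 2, 86.3% (85.4 to 87.1) in IP 4, 83.5% (82.2 to 84.7) in input 2 and 81.1% (79.8 to 82.4) in input 4. Pdyn took 8.77%, 11.1%, 10.4% and 13.6% in that order, with overlapping groups. The share of Pnoc was 3.70% and 2.63% in IP 2 and IP 4 and 6.12% and 5.24% in input 2 and input 4. The ratio of Penk to Pnoc counts was 23.6 and 32.8 in the IP libraries and 13.6 and 15.5 in the input libraries, 1.92-fold higher in IP, again at the smallest p that the exact permutation test allows (0.333).

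**Figure D3:**
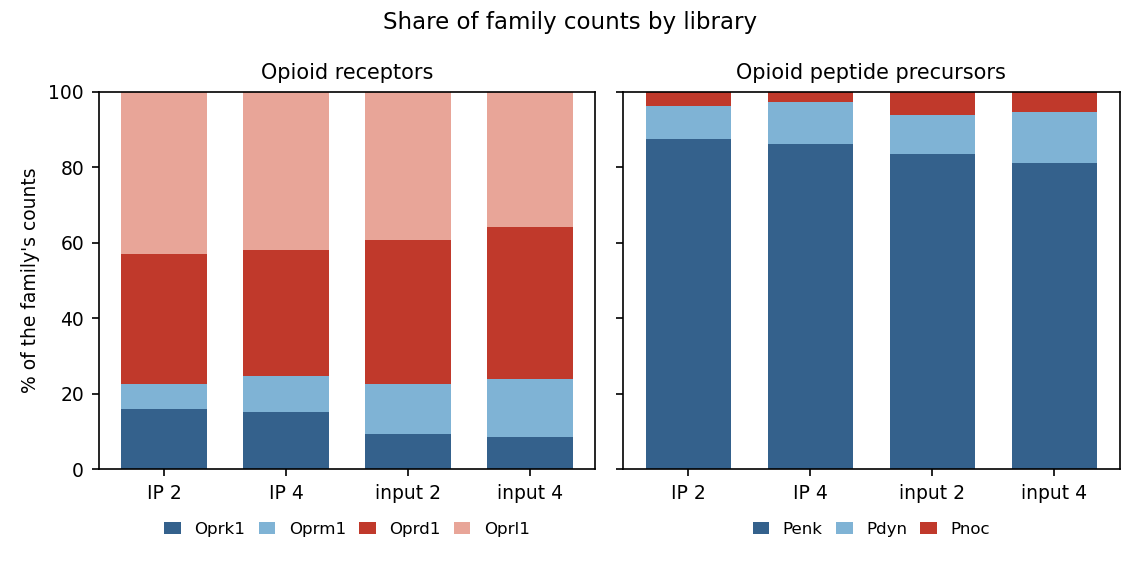
Share of each gene in the summed counts of the 4 receptor genes (left) and of the 3 precursor genes (right), in % for each library. Shares are of counts and not corrected for gene length. Oprk1 takes a larger share in the IP libraries and Oprm1 a smaller one, and Penk holds over 80% of precursor counts in every library shown.

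The ratio of a precursor to its receptor differed in direction among the pairs. For the dynorphin gene and the kappa receptor, the ratio of Pdyn to Oprk1 counts was 1.09 and 1.63 in IP 2 and IP 4 and 1.54 and 2.26 in input 2 and input 4, with overlapping groups. For the nociceptin gene and its receptor, the ratio of Pnoc to Oprl1 counts was 0.169 and 0.140 in IP against 0.216 and 0.210 in input, lower in both IP libraries. For enkephalin and the delta receptor, the ratio of Penk to Oprd1 counts was 5.0 and 5.78 in IP against 3.04 and 2.88 in input, and for the mu receptor the ratio of Penk to Oprm1 was 25.3 and 20.6 against 8.79 and 7.66. In all, 10 ratios between members were computed, and with 2 libraries a group the exact permutation test could bring none of them below 0.333, before or after adjustment.

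The 73 other genes of opioid peptide and receptor function came from 6 lists. Of these, 40 rose in IP, 10 fell and 23 did not pass, with a median log2 fold change of 0.34, against -0.04 over all genes tested. Over all genes tested, 23.4% were called higher and 22.4% lower. The lists hold many abundant genes: 32 of the 73 had a mean of at least 100 CPM, and of all 2087 such genes 48.3% were called higher and 19.9% lower. Scaled by library sizes alone, 22 of the 73 were higher and 19 lower, while over all genes the shares were 13.0% higher and 35.6% lower.

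Genes that make and package neuropeptides moved mostly upward. Among 15 genes, 11 were called higher, 0 lower and 4 not, with a median log2 fold change of 0.39. Ctsl, a cathepsin that also cuts proenkephalin in secretory vesicles, stood in IP 2 and IP 4 at 110 and 96.9 CPM and 50.6 and 51.4 CPM in the input libraries, higher by 1.02 on the log2 scale (SE 0.10, edgeR adjusted p = 2.74e-07). Chga, the granule protein chromogranin A, rose by 0.97, Cpe, the carboxypeptidase that trims basic residues from cut peptides, by 0.78, and Pcsk1, the first prohormone convertase, by 0.69 on the log2 scale. All 15 genes had groups that did not overlap, against 73.0% of all genes. Library sizes alone gave 7 higher and 2 lower.

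Peptidases that break opioid peptides down were divided. Of 10 genes, 5 were higher, 1 lower and 4 uncalled (median 0.36), against 23.4% higher and 22.4% lower over all genes tested. Thop1, the cytosolic thimet oligopeptidase, stood in IP 2 and IP 4 at 35.7 and 37.7 CPM and 12.8 and 10.9 CPM in the input libraries, 3.10-fold higher (log2 fold change 1.63, SE 0.14, edgeR adjusted p = 2.81e-08). Nln, the related neurolysin, was higher by 0.98, Ide, the insulin-degrading enzyme, by 0.82, and Dpp3, the dipeptidyl peptidase also called enkephalinase B, by 0.79 on the log2 scale. The fifth was Npepps, the puromycin-sensitive aminopeptidase, at 0.72. The member that fell was Mme, the membrane enzyme neprilysin that degrades released enkephalin, at -0.41 (edgeR adjusted p = 0.0175). Npepps and Mme lay outside the rule for named genes and were added after their values were seen. Library sizes alone gave 5 higher and 4 lower.

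Subunits of the inhibitory G proteins rose in 7 of 11 cases, 1 fell and 3 did not pass (median 0.43). Gnai1, an inhibitory alpha subunit, stood in IP 2 and IP 4 at 880 and 826 CPM and 576 and 527 CPM in the input libraries, higher by 0.63 on the log2 scale (SE 0.09, edgeR adjusted p = 1.1e-05). The beta subunit genes Gnb5, Gnb2 and Gnb4 rose by 0.86, 0.82 and 0.67. The gamma subunit gene Gng2 fell by 0.34, and it was named after its value was seen. Gnb4 is also in the layer 6 and claustrum marker list. With library sizes alone 5 of the 11 were higher and 2 lower.

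The effectors that opioid receptors act on, inwardly rectifying potassium channels, presynaptic calcium channels and adenylyl cyclases, did not share a direction. Of 12 genes, 3 were higher, 2 lower and 7 uncalled, with a median of 0.00, against 23.4% higher and 22.4% lower over all genes tested. Kcnj6, a subunit of the G protein-gated potassium channel, stood in IP 2 and IP 4 at 30.1 and 36.1 CPM and 49.7 and 56.6 CPM in the input libraries (log2 fold change -0.68, SE 0.12, edgeR adjusted p = 0.000181). Adcy1, a calcium-stimulated adenylyl cyclase, fell by 0.27, and it was named after its value was seen. The partner subunit Kcnj9 rose by 0.39, and Cacna1a and Cacna1b, the pores of the P/Q-type and N-type calcium channels, rose by 0.48 and 0.45. With library sizes alone 0 of the 12 were higher and 5 lower. The calls for Kcnj9, Cacna1a and Cacna1b were lost there, at 0.13, 0.22 and 0.19, and that for Cacna1b also without IP 4, at 0.29 (edgeR adjusted p = 0.0509).

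Regulators of receptor signalling moved in both directions, with 11 of 19 genes higher, 5 lower and 3 not passing (median 0.36). Over all genes tested, the shares were 23.4% higher and 22.4% lower. Arrb2, a beta-arrestin that uncouples activated opioid receptors, stood in IP 2 and IP 4 at 24.6 and 25.5 CPM and 12.4 and 10.5 CPM in the input libraries, 2.19-fold higher (log2 fold change 1.13, SE 0.15, edgeR adjusted p = 5.65e-06). The other beta-arrestin gene, Arrb1, had a mean of 263 CPM and overlapping groups. It was at 0.06 and did not pass (edgeR adjusted p = 0.622), and it was named after its value was seen. Among the RGS proteins, which speed the shut-off of G protein signals, Rgs12 rose by 1.02, whereas Rgs10 fell by 0.98 and Rgs9 also fell by 0.98. The other genes that fell, named after their values were seen, were Rgs8 at -0.70 and the receptor kinases Adrbk2 (now Grk3) at -0.68 and Grk5 at -0.63. The receptor kinases Adrbk1 (now Grk2) and Grk6 were called higher, at 0.48 and 0.51. Both were also named after their values were seen. Rgs9 is strongly expressed in striatal projection neurons and is in that marker list too. With library sizes alone 4 of the 19 were higher and 5 lower.

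A last list held 6 genes that bind opioids or carry opioid in their name, of which 3 rose, 1 fell and 2 did not pass (median 0.28). Shares over all genes tested were 23.4% higher and 22.4% lower. Ackr3, an atypical chemokine receptor that scavenges opioid peptides, rose by 0.71 (SE 0.21, edgeR adjusted p = 0.0107), a call lost without input 4 (0.55, edgeR adjusted p = 0.100) and with library sizes alone (0.45, edgeR adjusted p = 0.0935). Ogfr, the opioid growth factor receptor, which is unrelated to the membrane receptors, was higher by 1.07, and Opcml, a cell adhesion molecule, by 0.31, the latter not called with library sizes alone. Ogfrl1 fell by 0.84. Pomc, the precursor of beta-endorphin, was close to the floor, with means of 0.754 CPM (IP) and 1.02 CPM (input). It did not pass (edgeR adjusted p = 0.569), and it was named after its value was seen.

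**Figure D4:**
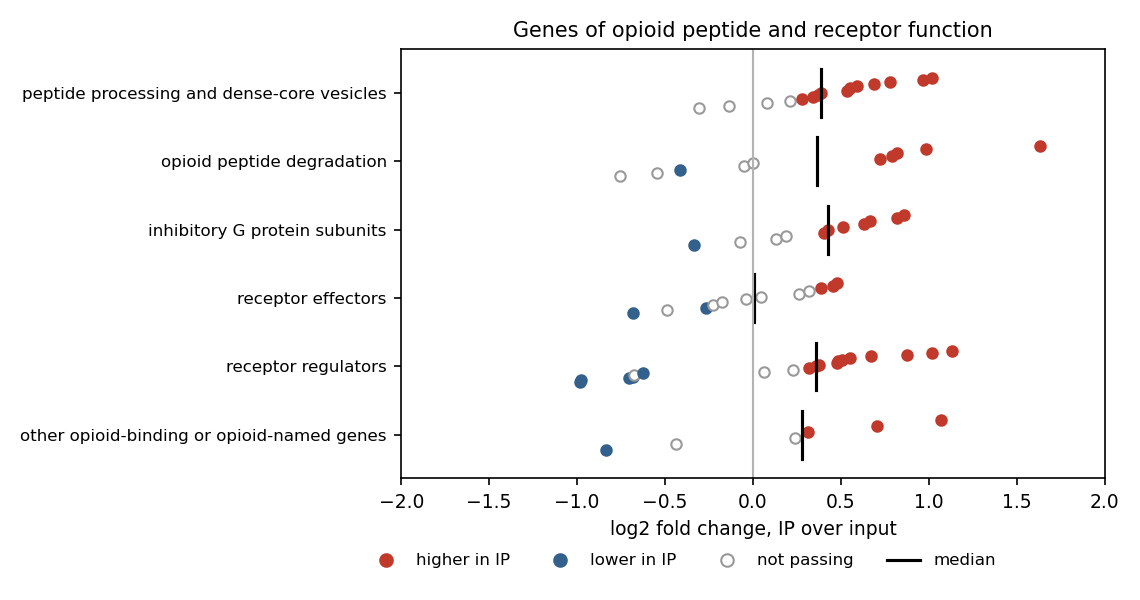
Log2 fold change of IP over input for every gene of the 6 lists of opioid peptide and receptor function (red, higher. Blue, lower. Open grey, not passing). Vertical bars are list medians, which lie between 0.00 for receptor effectors and 0.43 for inhibitory G protein subunits.

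Markers of the cell types in which these 7 genes are known were read in the same fit. The marker list of layer 6 intratelencephalic, Car3 and claustrum neurons, a setting in which Oprk1 is known, had 6 of 8 genes higher and 0 lower, with a summed level of 579 to 581 CPM in IP and 293 to 317 CPM in input. Nr4a2, an orphan nuclear receptor, was higher by 1.27 and Ntng2, a netrin-G adhesion protein, by 0.94 on the log2 scale. Car3 itself was close to the floor, with means of 1.34 CPM (IP) and 0.673 CPM (input), and it did not pass. Glutamatergic cortical neuron markers had 6 of 8 genes higher and 0 lower (6495 to 6796 CPM in IP, 4505 to 4826 CPM in input), led by Neurod6 at 1.42 and Sv2b at 0.67. The share called higher was 23.4% over all genes tested, but 48.3% where the mean reached 100 CPM. Every glutamatergic marker except Emx1 was that abundant, and in the layer 6 list only Nr4a2 was. Scaled by library sizes alone, the layer 6 list had 5 higher and 1 lower, and the glutamatergic list 3 higher and 0 lower. Their part in the Oprk1 and Penk differences was not tested.

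GABAergic markers moved with Oprm1. Of 10 genes, 6 fell, led by the interneuron transcription factors Lhx6 at -1.18 and Dlx5 at -0.96, against 22.4% of all genes tested. The summed level was 899 to 1076 CPM in IP and 1014 to 1085 CPM in input. The genes that make and load GABA, Gad1, Gad2 and Slc32a1, did not pass. In the Pvalb list 0 of 8 rose and 4 fell (280 to 283 CPM in IP, 373 to 383 CPM in input), with Kcnc2 at -0.66 and Pvalb at -0.52. The Vip list, for interneurons in which Penk is known, had 1 of 8 higher and 2 lower (46.5 to 51.1 CPM in IP, 52.1 to 55.8 CPM in input), with Tac2 at -0.57 and Prox1 at -0.35. Both calls were lost with DESeq2 (adjusted p = 0.105 and 0.0702). The call of Tac2 was also lost without IP 2, IP 4 or input 2 (log2 fold changes of -0.58, -0.52 and -0.40), and that of Prox1 without IP 2, IP 4 or input 4 (-0.34, -0.35 and -0.21). The gene that was called higher, Calb2, stood in IP 2 and IP 4 at 3.71 and 6.57 CPM and in input 2 and input 4 at 3.85 and 1.99 CPM. Its groups overlapped, with a log2 ratio of IP to input of -0.053 for number 2 and 1.73 for number 4, and a log2 fold change of 0.82 (edgeR adjusted p = 0.0484). The Sst list, for interneurons in which Pdyn is known, had 2 of 8 higher and 2 lower (305 to 328 CPM in IP, 262 to 263 CPM in input), with Cbln4 at 1.81 and Npy at -0.85. Without Cbln4 the summed level was 200.3 and 259 CPM in IP 2 and IP 4 and 239 and 236 CPM in input 2 and input 4, and the groups overlapped. Scaled by library sizes alone, 7 GABAergic and 6 Pvalb markers were lower, Vip markers had 0 higher and 3 lower, and Sst markers 1 higher and 4 lower. The part of these cell types in the values of Oprm1, Pdyn and Pnoc was not tested.

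Striatal projection neuron markers were mostly lower in IP. None of 11 genes was called higher, 7 were lower and 4 did not pass. Of all genes tested, 22.4% were called lower. The summed level was 394 to 433 CPM in IP and 610 to 705 CPM in input. Drd2 and Adora2a, which are expressed with Penk in striatum, were at -1.24 and -1.14 on the log2 scale. The part of striatal cells in the Penk difference was not tested. Of 8 thalamic markers 6 were tested, with 3 higher and 1 lower (63.4 to 76.5 CPM in IP, 55.7 to 63.3 CPM in input), with Lef1 at 2.43 and Tcf7l2 at -1.04. The markers not tested were Gbx2, with 0 counts in every library, and Shox2, with 0 counts in both IP libraries. Other cell types gave mixed values. Astrocyte markers had 3 of 8 higher and 3 lower (2718 to 2835 CPM in IP, 3342 to 3426 CPM in input), with Aldoc at 0.81 and Gjb6 at -0.69. Oligodendrocyte markers had 2 of 8 higher and 5 lower (1357 to 1384 CPM in IP, 1720 to 1816 CPM in input), with Mobp at -1.61 and Mal at -0.93. Precursors of oligodendrocytes had 1 of 6 higher and 2 lower (139 to 170 CPM in IP, 160 to 171 CPM in input), with Cspg4 at 2.03 and Vcan at -1.65. Microglia markers had 1 of 8 higher and 2 lower (47.6 to 51.7 CPM in IP, 46.3 to 51.8 CPM in input), with Csf1r at 0.75 and P2ry12 at -0.55, the latter not called without input 2 (edgeR adjusted p = 0.119). Endothelial and mural markers had 0 of 8 higher and 1 lower, Kcnj8 at -2.08 (20.8 to 28.3 CPM in IP, 25.5 to 34.3 CPM in input). Kcnj8 was close to the floor, with 6 and 11 counts in the IP libraries and 48 and 31 in the input libraries. The most abundant of these, Rgs5, was at 0.00 and did not pass. Scaled by library sizes alone, markers higher and lower were 0 and 9 for striatal neurons, 1 and 1 for thalamic neurons, 3 and 4 for astrocytes and 2 and 6 for oligodendrocytes. They were 1 and 4 for oligodendrocyte precursors, 1 and 2 for microglia and 0 and 4 for endothelial and mural cells.

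**Figure D5:**
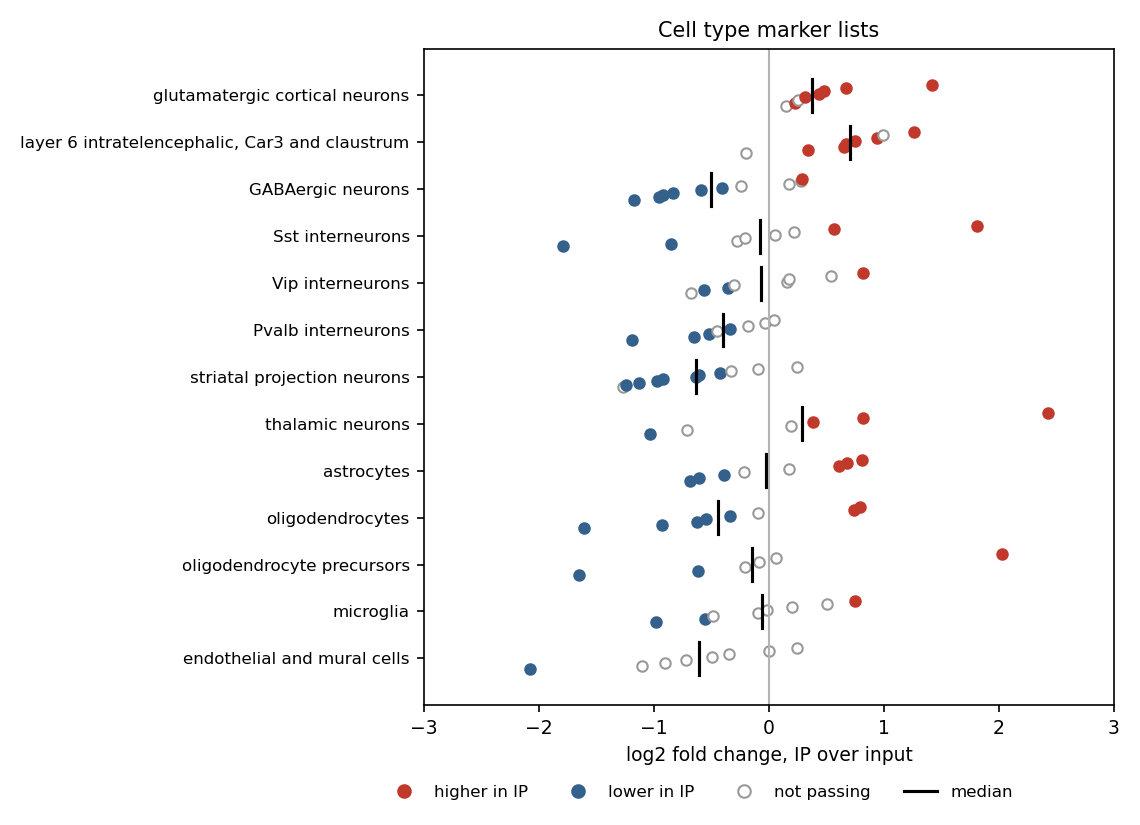
Log2 fold change of IP over input for every tested gene of the 13 marker lists (red, higher. Blue, lower. Open grey, not passing), with list medians as vertical bars. Layer 6 and claustrum markers lie furthest to the right by median, at 0.71, and striatal markers furthest to the left, at -0.64.

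The genes whose abundance followed each opioid gene most closely over the 4 libraries were found by the Euclidean distance between log2 CPM values centred on each gene's mean. For Oprk1 they were Wbp2 (distance 0.0148) and Hspd1 (0.0284), for Oprm1 Jam2 (0.0317) and Car8 (0.0806), and for Penk Rrm1 (0.0258) and Isyna1 (0.0298). For Oprd1 they were Usp3 (0.0117) and Ado (0.0121), for Oprl1 Vmp1 (0.0135) and Papd7 (0.0146), and for Pnoc Rgmb (0.0196) and Eif1ax (0.0283). Pdyn had no gene as close, with Per2 at 0.141 and Lamb1 at 0.143. With 4 libraries in 2 groups and a large number of candidate genes, close matches are common, and the distances describe these libraries.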

How the data were processed

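Whole-number read counts per gene were deposited by the authors, 1 file per library, made with STAR 2.0.0e, HTSeq and the mm10 build per the submitters' processing notes. Which annotation and strand setting were used is not stated in the labels. Lines that name no gene, 45.9% to 52.0% of records per library, were left out. Their make-up differed by group. Ambiguous records were 1.54% in IP 2 and IP 4 and 5.07% and 5.09% in input 2 and input 4. Records without a feature were 7.31% and 7.54% in IP and 14.9% and 13.5% in input, and those not uniquely aligned 37.0% and 38.0% against 32.1% and 30.7%. The effect of this on the opioid genes was not tested. Counts were fitted with edgeR 4.0.16 in R 4.3.3: TMM factors (0.909 to 1.10), filterByExpr (minimum count 10, total 15), and quasi-likelihood tests (IP over input) on 2 residual degrees of freedom. Tests and intervals also drew on 16.8 prior degrees of freedom (median), which were estimated over all genes. The biological coefficient of variation was 12.5%. Benjamini-Hochberg adjustment covered all 16600 genes tested, with a threshold of 0.05, two-sided. Standard errors and 95% intervals were derived from the F statistic. On simulated data for this comparison (16600 genes, 50 changed per fold size, means of at least 1 CPM), 52% of 1.5-fold, 80% of 2-fold, 98% of 4-fold and 100% of 8-fold changes were recovered, with 8 false calls among 16400 unchanged genes. Far fewer genes were changed there than the 45.8% called in the data, and no scaling difference between groups was simulated. These rates may therefore not hold for the real comparison.

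The 7 members and all lists were chosen with earlier results of these data known. Named genes were the members, Cbln1, up to 4 called genes with the largest absolute log2 fold change per functional list and up to 2 per marker list (mean of at least 5 CPM, or the most abundant gene where none passed), and the 2 closest genes per member. Genes named after their values were seen are Npepps, Mme, Gng2, Adcy1, Rgs8, Adrbk1, Adrbk2, Grk5, Grk6, Arrb1, Pomc, Calb2 and Kcnj8. Car3, Gad1, Gad2, Slc32a1, Gbx2 and Shox2 are defining markers outside the rule. The range of 4 to 100 CPM and the Sst sum without Cbln4 were set after seeing the data. Alternatives were DESeq2 1.42.0, other scalings and filters, a replicate block and leaving out each library. Coordinates and sequences came from GENCODE vM21. Figures were drawn with matplotlib 3.10.9.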

Additional observations from a re-analysis of the deposited data

How the results depend on the processing

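For the 7 opioid genes, 62 of 70 values over 10 alternatives kept their direction and their side of the threshold, 2 lost a call, 6 gained one and 0 turned. Both lost calls were those of Oprm1 without 1 library, given in the report. With a replicate block 5 members were called against 3, and 4 were higher against 2, as Oprl1 (edgeR adjusted p = 0.0297) and Pdyn (0.0217) were added. The numbers 2 and 4 are not said to mark shared animals, and 2 pairs are too few to show it. Pdyn was also called with no filter on low counts (0.0343). Scaling by library sizes alone left 2 members lower against 1, regulators called fell to 9 from 16, and the last opioid list to 2 from 4, since that scaling shifted all genes by -0.26. Leaving out 1 library gave 3 members called each time, 2 to 3 higher and 0 to 1 lower, and 9 to 10, 5 to 6, 7 to 8, 4 to 5, 14 to 17 and 3 to 4 genes called in the processing, degradation, G protein, effector, regulator and last lists. Among the other named genes, 601 of 640 values were unchanged in direction and call, 25 lost a call and 9 gained one. The 5 that turned were all of Rgs5, which was at 0.00 and not called: -0.26 with library sizes alone, -0.019 with a replicate block, -0.049 with the stricter filter, -0.33 without IP 2 and -0.12 without input 4, in a range of -0.33 to 0.30 over single libraries left out. Pnoc had 165 to 219 counts per library and Oprm1 160 to 390, and the effect of depth on their calls was not tested.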
